A study of Mus musculus with 22 samples.

Results

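The genes described here bring fatty acids from circulating lipoproteins into fat. They were chosen by name: Lpl, Gpihbp1, Angptl4, Vldlr, Cd36, Slc27a1, Fabp4 and Acsl1. Of these 8 listed genes 7 were found among the 19337 genes with a symbol, and Acsl1 was not analysed here. Expression was measured with 1-colour whole-transcript arrays in 12 epididymal (epiWAT) and 10 inguinal subcutaneous (ingWAT) fat samples of male C57BL/6J mice. All mice were bone marrow chimeras that had 6 weeks to reconstitute and were then fed for 14 weeks on chow that drew 60% of its calories from fat. The donor marrow was wild type (WT), Gipr-/- or Gipr-/- /S100a9-/-, called double knockout below. Gipr encodes the receptor of the gut hormone GIP, and S100a9 encodes an alarmin subunit of neutrophils and monocytes. EpiWAT had 4 arrays for each marrow. For ingWAT, WT marrow had 4 arrays, Gipr-/- marrow 3 and double-knockout marrow 3. Recipients were WT for WT and Gipr-/- marrow, per the labels, and those of double-knockout marrow were not identified in the labels used here. In a WT recipient only the cells that derive from marrow carry the deletion, while adipocytes and most vessel cells are the recipient's. Whether this holds for the double-knockout group is not known. Whole tissue was measured, so fewer cells of a type and less RNA per cell cannot be told apart.

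Triglyceride reaches fat in very-low-density lipoproteins and chylomicrons. Lipoprotein lipase (Lpl), made by adipocytes and macrophages, is carried across the capillary wall and held there by Gpihbp1, a protein of endothelial cells, and frees the fatty acids. Angptl4 inactivates the enzyme, and the VLDL receptor (Vldlr) binds triglyceride-rich particles. Cd36 and Slc27a1 (the fatty acid transport protein FATP1) serve entry into the cell, Acsl1 joins the fatty acid to coenzyme A, and Fabp4 carries it in the cytoplasm. Most of these genes are targets of PPAR-gamma in adipocytes, and macrophages also express Lpl, Cd36, Fabp4, Angptl4 and Vldlr.

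The arrays carried the adipocyte gene Adipoq, which encodes adiponectin, at a log2 value of 18 to 19.4 in all 22 samples. Marker scores were made by centring each listed gene on its mean over the arrays of the depot and averaging the centred log2 values. Some arrays stood apart in such scores. In epiWAT, double-knockout replicate 1 scored 4.57 for epididymis epithelium and -1.54 for adipocytes, and its value for Gpx5, a secreted epididymal peroxidase, was 18.94. Gipr-/- replicate 1 scored 6.94 for testis germ cells. In ingWAT, double-knockout replicates 1 and 3 scored 4.91 and 4.82 for B cells, against -1.39 to -0.89 in the 7 WT and Gipr-/- arrays and -1.34 in double-knockout replicate 2. Skeletal muscle scores in ingWAT ran from -4.98 to 5.77. The targeted genes were low on the array, Gipr at 4.02 to 6.10 and S100a9 at 4.56 to 6.98, and neither passed a test between marrows. Whether their probes fall inside the deleted parts is unknown, and so they check no label.

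In ingWAT, Angptl4 and Vldlr fell with double-knockout compared with Gipr-/- marrow, by 1.45 and 1.74 on the log2 scale. These were 2 of the 7 members, and 3.48% of the 14502 genes tested were called in that comparison, 2.65% lower. Slc27a1 was higher in ingWAT than in epiWAT with Gipr-/- marrow, by 1.58, where 0.614% of all genes were called, 0.359% higher. A gene is called where limma's adjusted p, by Benjamini-Hochberg over all genes tested, is under 0.05. Each of these 3 calls was lost when certain single arrays were left out, as given with each gene. All 3 were lost (adjusted p = 0.434 for Angptl4, 0.619 for Vldlr and 0.315 for Slc27a1) without the 3 ingWAT arrays whose title codes run out of sequence, WT replicate 4 and Gipr-/- replicates 1 and 2, which leaves 1 Gipr-/- array, assumed to vary like the other groups. The differences were then -1.54, -1.38 and 1.57. In epiWAT limma called 0 members and 0 of 14502 genes (0%) in each of the 3 comparisons between marrows. With array weights 26 genes and 0 members were called there for Gipr-/- minus WT. At an unadjusted p under 0.05 stood 1 member, Slc27a1, for Gipr-/- minus WT, beside 7.25% of all genes, and 0 members for the other comparisons, beside 10.7% and 3.06%. The groups overlapped for all 7 members in each of these epiWAT comparisons, while 5.04%, 6.05% and 2.32% of all genes did not overlap. In ingWAT 0 members were called for Gipr-/- minus WT (background 0.234%) and 0 for double knockout minus WT (background 0%), with 2 members at an unadjusted p under 0.05 in each, beside 15% and 13.5% of all genes. The Gipr-/- and WT groups in ingWAT did not overlap for 2 members, Lpl and Angptl4, as for 15.4% of all genes. Between depots 0 members were called with WT marrow (background 1.97%) and 0 with double-knockout marrow (background 3.92%), where the depots overlapped for all 7 members and not for 15.5% of all genes. The comparisons within a depot share arrays, as do those between depots, so their values are set side by side and are not separate observations.

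**Figure D1:**
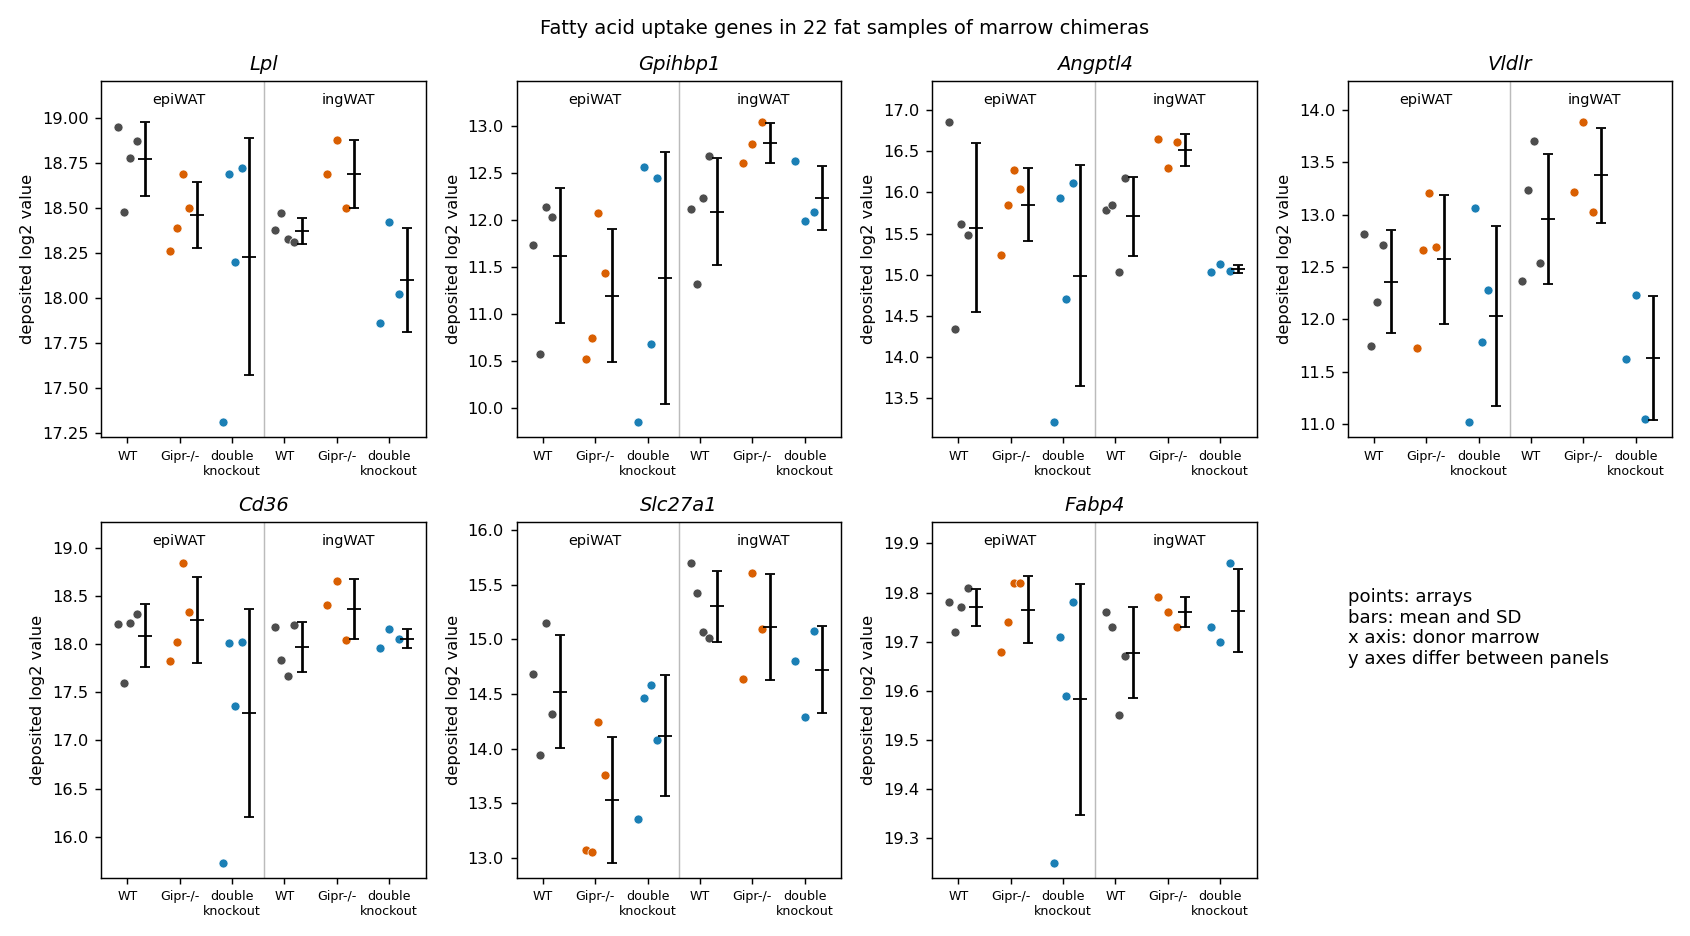
The log2 value of each of the 7 genes is plotted by array for the 6 depot and marrow groups, with a bar at each group mean. Angptl4 and Vldlr show the separate ingWAT groups with Gipr-/- and double-knockout marrow, and double-knockout replicate 1 is the lowest epiWAT array for 6 of the genes.

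Upstream sequence in the RefSeq tables matched 3 of the 7 measured members, Cd36, Slc27a1 and Vldlr, of build GRCm38.p6. All members with such sequence are shown, so the choice rests on availability and not on the results. Of these, Vldlr and Slc27a1 carry called differences. Cd36 and Vldlr varied together over the epiWAT arrays (r = 0.85), while Slc27a1 did not follow them as closely. Over the ingWAT arrays r was 0.17 for Cd36 with Vldlr, 0.30 for Slc27a1 with Vldlr and 0.09 for Slc27a1 with Cd36. Each line is the 250 bases before the most upstream listed start, 5′ to 3′ on the gene's strand, with the letters of the motifs searched in capitals.
Cd36, chr5:17835897-17836146, minus strand: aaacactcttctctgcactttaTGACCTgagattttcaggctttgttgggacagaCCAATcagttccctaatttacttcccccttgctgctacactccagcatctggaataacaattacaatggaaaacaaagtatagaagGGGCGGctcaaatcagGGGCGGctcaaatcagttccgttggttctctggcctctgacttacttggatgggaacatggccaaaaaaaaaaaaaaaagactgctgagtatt
Slc27a1, chr8:71568621-71568870, plus strand: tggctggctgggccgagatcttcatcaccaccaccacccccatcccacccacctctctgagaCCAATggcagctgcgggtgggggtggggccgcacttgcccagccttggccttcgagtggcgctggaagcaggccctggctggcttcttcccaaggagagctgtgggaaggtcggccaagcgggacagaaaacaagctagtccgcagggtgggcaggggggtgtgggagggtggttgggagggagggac
Vldlr, chr19:27216234-27216483, plus strand: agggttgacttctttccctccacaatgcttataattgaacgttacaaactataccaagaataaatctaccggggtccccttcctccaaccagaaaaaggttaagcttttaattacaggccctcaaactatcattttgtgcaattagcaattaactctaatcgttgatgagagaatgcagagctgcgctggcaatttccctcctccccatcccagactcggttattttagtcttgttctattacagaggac

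Searched on both strands were AGGTCA, the nuclear receptor unit, and AGGTCANAGGTCA, the direct repeat bound by PPAR with RXR, which contains AGGTCA at both ends. Also searched were the CCAAT box, the GC box GGGCGG and the TATA box TATAAA. The Cd36 window held AGGTCA on the opposite strand (read as TGACCT, bases 228 to 223 before the start), CCAAT at bases 195 to 191, and GGGCGG at bases 109 to 104 and again at 93 to 88. The Slc27a1 window held CCAAT at bases 188 to 184 and none of the others. The Vldlr window held none of the 5 motifs. Among 32851 upstream windows of this length, 14.0% held AGGTCA, 0.0335% the direct repeat, 33.8% CCAAT, 32.7% GGGCGG and 12.4% TATAAA. A match describes letters in this window only.

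Lpl, the lipase itself, ran from 17.31 to 18.95 over all arrays. Its SD within groups was 0.33, near the median of 0.35 for genes with a mean between 18 and 19. In epiWAT its log2 value was 18.95, 18.48, 18.78 and 18.87 in the WT-marrow arrays, 18.26, 18.39, 18.69 and 18.50 in the Gipr-/- arrays and 17.31, 18.69, 18.20 and 18.72 in the double-knockout arrays. In ingWAT it was 18.38, 18.47, 18.33 and 18.31 (WT marrow), 18.69, 18.88 and 18.50 (Gipr-/- marrow) and 17.86, 18.42 and 18.02 (double knockout). In ingWAT all Gipr-/- arrays thus lay above all arrays of both other groups, while in epiWAT the groups overlapped. The ingWAT difference between double-knockout and Gipr-/- marrow was -0.59 (SE 0.20, 95% interval -1.02 to -0.15, limma adjusted p = 0.131) and was not called. It was called with array weights (-0.70, adjusted p = 0.0226) and without double-knockout replicate 2 (-0.75, adjusted p = 0.0385). With the 2 double-knockout arrays high in B cell genes left out it was -0.27 (adjusted p = 0.729). Gipr-/- minus WT was 0.32 in ingWAT (SE 0.19, adjusted p = 0.47) and -0.31 in epiWAT (SE 0.29, adjusted p = 0.876). With WT marrow all ingWAT arrays lay below all epiWAT arrays, as for 11.7% of all genes, with a difference of -0.40 (SE 0.25, adjusted p = 0.429). Ordered by group mean, Lpl was highest in epiWAT with WT marrow (18.77 ± 0.20, SD, n = 4) and ingWAT with Gipr-/- marrow (18.69 ± 0.19, n = 3). Next came epiWAT with Gipr-/-, ingWAT with WT and epiWAT and ingWAT with double-knockout marrow, the last at 18.10 ± 0.29 (n = 3). The gap between ingWAT with Gipr-/- marrow and epiWAT with Gipr-/- marrow was the one between neighbours that exceeded the larger of the SDs.

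Gpihbp1, which anchors the lipase on capillary endothelium, was among the most variable members. Its log2 value in epiWAT was 11.74, 10.57, 12.14 and 12.03 in the WT-marrow arrays, 10.52, 10.74, 12.08 and 11.44 in the Gipr-/- arrays and 9.85, 12.57, 10.68 and 12.45 in the double-knockout arrays. In ingWAT it was 12.12, 11.32, 12.24 and 12.68 (WT marrow), 12.61, 12.81 and 13.04 (Gipr-/- marrow) and 12.63, 11.99 and 12.09 (double knockout). The epiWAT groups overlapped fully, and in ingWAT the Gipr-/- arrays were on the high side, with overlap. None of its differences was called. With Gipr-/- marrow the ingWAT arrays all lay above the epiWAT arrays, with a difference of 1.62 (SE 0.55, 95% interval 0.47 to 2.77, limma adjusted p = 0.186). Such separation held for 16.8% of all genes in that comparison, and for 3 members. In ingWAT Gipr-/- minus WT was 0.73 (SE 0.30, adjusted p = 0.287). Endothelial markers were higher for 12 of 12 in ingWAT with Gipr-/- than with WT marrow, with a summed level of 16.10 to 16.93 against 15.55 to 16.64. Other lists differed there too. Lipid-associated macrophage markers were higher for 10 of 11, skeletal muscle markers lower for 11 of 11 (median -4.69) and skin and gland epithelium markers lower for 7 of 9 (median -0.88). Between depots with Gipr-/- marrow 12 of 12 endothelial markers were higher in ingWAT (16.10 to 16.93 against 14.29 to 16.03). Pecam1, an adhesion molecule of endothelial cells, differed by 0.86 there (SE 0.57, adjusted p = 0.482). Over arrays, Gpihbp1 correlated with the endothelial score at r = 0.93 in 12 epiWAT and 0.84 in 10 ingWAT arrays. It also correlated with the skin and gland epithelium score at -0.92 and -0.74, the adipocyte score at 0.88 and 0.19 and the skeletal muscle score at 0.11 and -0.60. The arrays share tissue composition, and the part of vessels or other tissue in its level was not tested. In the order of group means the 3 ingWAT groups stood above the 3 epiWAT groups, from 12.82 ± 0.21 (SD, n = 3) in ingWAT with Gipr-/- to 11.20 ± 0.71 (n = 4) in epiWAT with Gipr-/- marrow, and the step below the highest group alone exceeded the larger SD.

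Angptl4, the inhibitor that unfolds the lipase, showed the smallest p of the members between ingWAT groups. With Gipr-/- marrow its log2 value in ingWAT was 16.65, 16.29 and 16.61, with double-knockout marrow 15.03, 15.13 and 15.05, and with WT marrow 15.78, 15.85, 15.03 and 16.17. All Gipr-/- arrays were above all others, and the double-knockout arrays lay within 0.1 of each other at the bottom of the WT range. Double knockout minus Gipr-/- was -1.45 (SE 0.27, 95% interval -2.03 to -0.86, 2.73-fold lower, limma adjusted p = 0.0168, rank 145 of 14502 by p). The groups did not overlap for Angptl4, Vldlr and Lpl, as for 22.3% of all genes. The Angptl4 call was lost without Gipr-/- replicate 1 or 2 or double-knockout replicate 1 or 3 (adjusted p = 0.0588 to 0.0787) and with all 22 arrays in one fit (adjusted p = 0.2). Double-knockout replicate 2, at 15.13, had a B cell score of -1.34. It also had the highest skeletal muscle (3.03), skin and gland epithelium (1.92) and brown or beige (0.52) scores of its group. The part of other cells in the Angptl4 values was not tested. With replicates 1 and 3 left out the difference was -1.39 (adjusted p = 0.189), where the lone array is assumed to vary like the other groups. Gipr-/- minus WT was 0.81 (SE 0.25, 95% interval 0.26 to 1.36, adjusted p = 0.157) and double knockout minus WT -0.64 (SE 0.25, adjusted p = 0.298). In epiWAT Angptl4 was 16.85, 14.34, 15.62 and 15.48 in the WT-marrow arrays, 15.24, 15.85, 16.27 and 16.04 in the Gipr-/- arrays and 13.21, 15.93, 14.70 and 16.11 in the double-knockout arrays. These groups overlapped, and double knockout minus Gipr-/- was -0.86 (SE 0.64, adjusted p = 0.641). Whether the 2 depots differed in this was not resolved, with a difference of -0.58 (SE 0.79, 95% interval -2.23 to 1.06, adjusted p = 0.81). By group mean Angptl4 ran from 16.52 ± 0.19 (SD, n = 3) in ingWAT with Gipr-/- marrow through epiWAT Gipr-/-, ingWAT WT, epiWAT WT and ingWAT double knockout to 14.99 ± 1.34 (n = 4) in epiWAT with double-knockout marrow. The step below the highest group alone exceeded the larger SD.

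Vldlr, the receptor for triglyceride-rich particles, had the largest difference among the members in the same comparison. Its log2 value in ingWAT was 13.22, 13.88 and 13.02 with Gipr-/-, 11.62, 12.23 and 11.05 with double-knockout and 12.37, 13.23, 13.70 and 12.54 with WT marrow. The double-knockout arrays lay below all arrays of both other groups, which overlapped each other. Double knockout minus Gipr-/- was -1.74 (SE 0.40, 95% interval -2.61 to -0.87, 3.34-fold lower, limma adjusted p = 0.0377, rank 366 by p). This call was lost without WT replicate 2, Gipr-/- replicate 1 or 2 or double-knockout replicate 1 or 3 (adjusted p = 0.0523 to 0.169), without a variance trend (0.0524), with quantile normalization (-1.59, 0.0552) and with all 22 arrays in one fit (0.0524). With the 2 double-knockout arrays high in B cell genes left out the difference was -1.15 (adjusted p = 0.353). Double knockout minus WT was -1.33 (SE 0.37, adjusted p = 0.169), with no overlap, as for 11% of all genes. It was called with array weights (-1.53, adjusted p = 0.0301) and without double-knockout replicate 2 (-1.63, adjusted p = 0.0346). In epiWAT the values were 12.81, 11.75, 12.17 and 12.71 (WT marrow), 11.73, 12.66, 13.21 and 12.69 (Gipr-/- marrow) and 11.02, 13.06, 11.78 and 12.28 (double knockout). They overlapped fully. The ingWAT difference between double-knockout and Gipr-/- marrow minus the epiWAT one was -1.20 (SE 0.64, limma adjusted p = 0.423), which was not called. The group means of Vldlr ran from 13.37 ± 0.45 (SD, n = 3) in ingWAT with Gipr-/- marrow to 11.63 ± 0.59 (n = 3) in ingWAT with double-knockout marrow. In between lay ingWAT with WT and epiWAT with Gipr-/-, WT and double-knockout marrow, and no step between neighbours exceeded the larger SD.

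Macrophage markers were mostly lower with double-knockout than with Gipr-/- marrow in both depots, and the ingWAT values come first. Of the lipid-associated macrophage markers, 11 of 11 were lower with double-knockout than with Gipr-/- marrow, with a summed level of 18 to 18.38 against 18.39 to 18.85 and scores of -0.82 to -0.33 against 0.44 to 1.10. Trem2, a lipid-sensing receptor of such cells, was at -1.18 (SE 0.48, limma adjusted p = 0.201). General macrophage markers were lower for 11 of 12 (summed 15.29 to 15.66 against 15.48 to 16.14), with Adgre1, a surface receptor of macrophages, at -0.92 (SE 0.42, adjusted p = 0.255). Endothelial markers were lower for 12 of 12 (16.20 to 16.43 against 16.10 to 16.93), and adipocyte markers for 5 of 10 (20.97 to 21.01 against 21.11 to 21.28). B cell markers were higher for 5 of 5 (6.67 to 13.67 against 6.63 to 7.03) and skeletal muscle markers for 10 of 11 (13.72 to 19.90 against 14.10 to 16.22). Skin and gland epithelium markers were higher for 9 of 9 (7.89 to 12.83 against 7.56 to 9.61) and brown or beige adipocyte markers for 5 of 6 (10.21 to 10.96 against 8 to 10.24). Over the 10 ingWAT arrays Angptl4 correlated with the macrophage score at r = 0.81 and with the lipid-associated score at 0.80, and with the brown or beige score at -0.69. Angptl4 also correlated with the adipocyte score at 0.65, the neutrophil score at 0.62 and the B cell score at -0.55. Vldlr correlated with the macrophage and lipid-associated scores at 0.53 and 0.57, with the neutrophil score at 0.66 and with the B cell score at -0.79. In epiWAT the same comparison had 11 of 11 lipid-associated markers lower (median -1.93, against -1.18 in ingWAT). General macrophage markers were lower there for 12 of 12 (median -0.80, against -0.73 in ingWAT). Trem2 was at -2.02 in epiWAT (SE 0.49, limma adjusted p = 0.227), while Angptl4 (-0.86) and Vldlr (-0.54) were not called there. The part of these cells in the member differences was not tested.

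**Figure D2:**
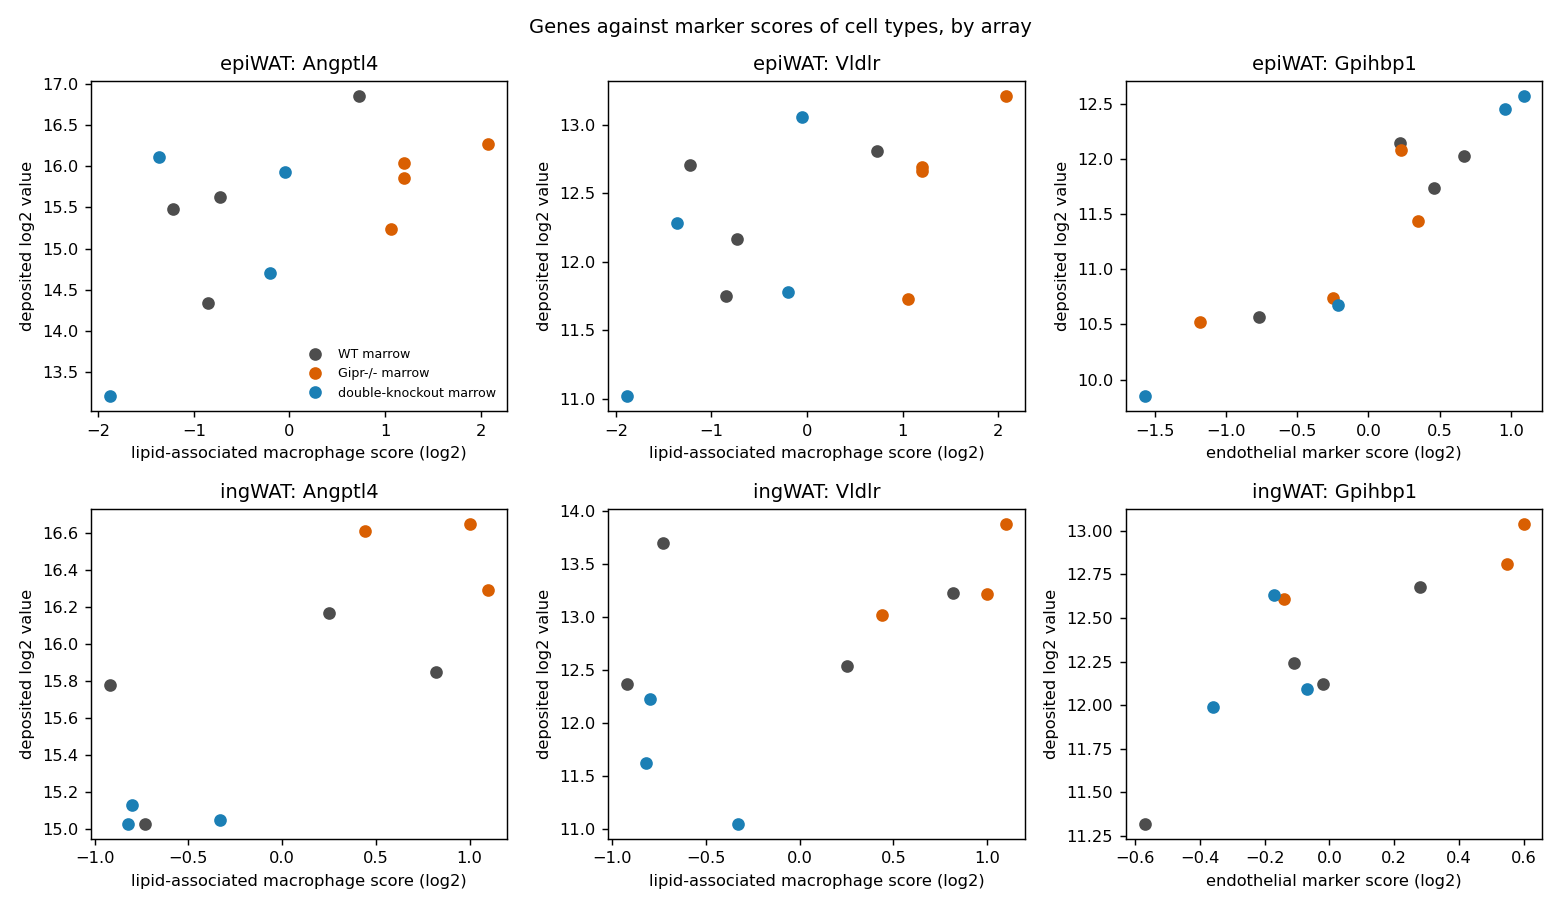
The log2 value of Angptl4 and Vldlr is plotted against the lipid-associated macrophage score, and that of Gpihbp1 against the endothelial score, for each epiWAT (top) and ingWAT (bottom) array, coloured by marrow. Gpihbp1 rises with the endothelial score in both depots (r = 0.93 and 0.84). The ingWAT double-knockout arrays sit low in both Angptl4 and the lipid-associated macrophage score, as does WT replicate 3 (15.03 and -0.73). WT replicate 1 is also low in that score (-0.92).

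**Figure D3:**
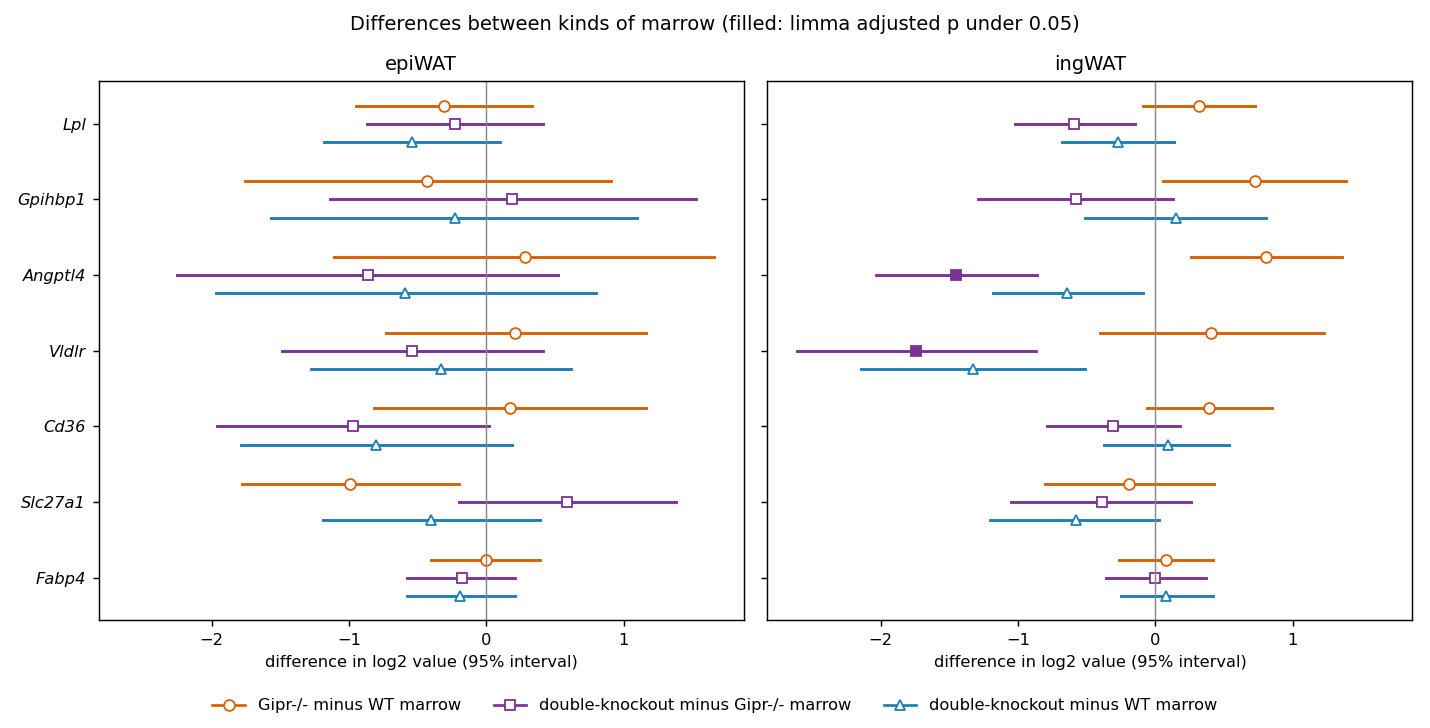
Differences in log2 value between marrows are plotted for each gene in epiWAT (left) and ingWAT (right), with 95% intervals, and filled symbols mark a limma adjusted p under 0.05. The filled ones are Angptl4 (-1.45) and Vldlr (-1.74) for double knockout minus Gipr-/- in ingWAT.

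Cd36, the scavenger receptor that binds long-chain fatty acids, had overlapping groups in ingWAT and 0 called differences. There its log2 value was 18.18, 17.83, 17.67 and 18.20 in the WT-marrow arrays, 18.40, 18.65 and 18.04 in the Gipr-/- arrays and 17.96, 18.16 and 18.05 in the double-knockout arrays. Gipr-/- minus WT was 0.39 (SE 0.21, 95% interval -0.06 to 0.85, limma adjusted p = 0.406). Double knockout minus Gipr-/- was -0.31 (SE 0.22, 95% interval -0.79 to 0.18, limma adjusted p = 0.528), and its sign turned with quantile normalization (0.09). In epiWAT it was 18.21, 17.60, 18.22 and 18.31 (WT marrow), 17.82, 18.02, 18.84 and 18.33 (Gipr-/- marrow) and 15.73, 18.01, 17.36 and 18.02 (double knockout). Double-knockout replicate 1 stood 1.63 below the lowest of the other 11 epiWAT arrays. The epiWAT difference between double-knockout and Gipr-/- marrow was -0.97 (SE 0.45, 95% interval -1.96 to 0.02, adjusted p = 0.475) and -0.60 without that array and Gipr-/- replicate 1 (adjusted p = 0.519). Ordered by mean, the groups ran from 18.37 ± 0.31 (SD, n = 3) in ingWAT with Gipr-/- marrow through epiWAT Gipr-/-, epiWAT WT, ingWAT double knockout and ingWAT WT to 17.28 ± 1.08 (n = 4) in epiWAT with double-knockout marrow, and no neighbours differed beyond the larger SD.

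Slc27a1, the transport protein that couples uptake to acyl-CoA formation, was the member with a called difference between depots. With Gipr-/- marrow its log2 value was 14.64, 15.61 and 15.10 in ingWAT and 13.07, 13.05, 14.24 and 13.76 in epiWAT, without overlap. The difference was 1.58 (SE 0.36, 95% interval 0.84 to 2.33, 3-fold higher in ingWAT, limma adjusted p = 0.0479, rank 82 of 14502). It was lost without a filter on low genes (adjusted p = 0.0599), without a variance trend (0.0589), with quantile normalization (1.56, 0.0586) and in 18 of the 22 fits that left out 1 array, where it ranged from 1.34 to 1.82 (adjusted p up to 0.221, without ingWAT Gipr-/- replicate 2). Median centring of the arrays moves the median of all genes by 0.15 in this comparison. Values with WT marrow were 15.70, 15.43, 15.07 and 15.01 in ingWAT and 14.68, 13.94, 15.15 and 14.32 in epiWAT, a difference of 0.78 (SE 0.33, adjusted p = 0.243). With double-knockout marrow they were 14.80, 14.29 and 15.08 in ingWAT and 13.35, 14.46, 14.58 and 14.08 in epiWAT, a difference of 0.60 (SE 0.36, adjusted p = 0.347). Both of these pairs of groups overlapped. The depot difference with Gipr-/- marrow exceeded that with WT marrow by 0.80 (SE 0.49, adjusted p = 0.718), which was not called. Slc27a1 is also a gene of skeletal muscle, and with Gipr-/- marrow 11 of 11 muscle markers were higher in ingWAT (14.10 to 16.22 against 11.84 to 12.30), as were 9 of 10 adipocyte markers (21.11 to 21.28 against 20.43 to 21.10). Over the 10 ingWAT arrays its correlation with the muscle score was 0.08 and with the adipocyte score -0.23, and over the 12 epiWAT arrays they were -0.51 and 0.64. The part of muscle and adipocytes in the depot difference was not tested. Within epiWAT, Gipr-/- minus WT was -0.99 (SE 0.36, 95% interval -1.78 to -0.20, unadjusted p = 0.0184, limma adjusted p = 0.632). Adipocyte markers were lower there for 9 of 10 (20.43 to 21.10 against 20.77 to 21.27). By mean, all 3 ingWAT groups stood above all 3 epiWAT groups, from 15.30 ± 0.32 (SD, n = 4) in ingWAT with WT marrow to 13.53 ± 0.58 (n = 4) in epiWAT with Gipr-/- marrow, and the last step alone exceeded the larger SD.

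Fabp4, the cytoplasmic fatty acid carrier of adipocytes, lay between 19.25 and 19.86 in all 22 arrays, near the highest value in the table (19.9). Its lowest array was epiWAT double-knockout replicate 1, and the other 11 epiWAT arrays ran from 19.59 to 19.82. Group means ran from 19.58 ± 0.24 (SD, n = 4) in epiWAT with double-knockout marrow to 19.77 ± 0.04 (n = 4) in epiWAT with WT marrow, and no neighbours in their order differed beyond the larger SD. The differences between marrows reached at most -0.19 (epiWAT, double knockout minus WT, SE 0.18, limma adjusted p = 0.999). Genes this high on the array varied little in general. The 10 genes with a mean of 19 or more had a median SD within groups of 0.15, against 0.35 to 0.43 in lower bands of level down to 11, and that of Fabp4 was 0.12.

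In epiWAT all 7 members were lower by mean with double-knockout than with WT marrow, with a median difference of -0.40 against -0.02 over all genes, and none was called. In the same comparison 10 of 10 adipocyte markers (median -0.64, summed level 19.73 to 21.36 against 20.77 to 21.27) and 12 of 12 macrophage markers (median -0.48, 14.83 to 16.97 against 15.97 to 17.16) were lower by mean. Skin and gland epithelium markers were higher for 8 of 9 (median 0.56) and epididymis epithelium markers for 6 of 8 (median 0.67). The part of these cells and tissues in the member differences was not tested. For 6 of the 7 the lowest of the 12 arrays was double-knockout replicate 1, which was the lowest array for 18.2% of all genes tested. Without it and Gipr-/- replicate 1, the difference was 0.28 for Gpihbp1, 0.01 for Angptl4 and 0.01 for Vldlr. The other 4 members stayed negative, Lpl at -0.23, Cd36 at -0.28, Slc27a1 at -0.15 and Fabp4 at -0.07. Lpl, whose difference was -0.54 with all arrays (SE 0.29), had a mean of 18.54 ± 0.29 (SD, n = 3) in the other double-knockout arrays. In ingWAT the medians over the members were 0.39 for Gipr-/- minus WT (0.03 over all genes), -0.58 for double knockout minus Gipr-/- (-0.03) and -0.27 for double knockout minus WT (-0.01). In none of the 3 contrasts of the marrow difference between depots was a member called, at backgrounds of 0%, 0.717% and 0%, with 0 members at an unadjusted p under 0.05 in each, beside 7.95%, 13.8% and 8.54% of all genes.

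The members varied together more in epiWAT than in ingWAT. Over the 12 epiWAT arrays the 21 pairs of members had a median r of 0.78 (0.33 to 0.97), and 17 pairs exceeded 0.5, as did 10.9% of all gene pairs. Without double-knockout replicate 1 the median was 0.62 (0.07 to 0.88), again with 17 pairs above 0.5, where 10.5% of all gene pairs are. The closest pairs were Cd36 with Fabp4 (0.97) and Lpl with Fabp4 (0.93). Cd36 and Vldlr reached 0.85, while Slc27a1 was the most separate, at 0.33 with Vldlr and 0.36 with Cd36. The adipocyte score moved with them, at r of 0.95 for Lpl, 0.83 for Cd36, 0.79 for Angptl4, 0.75 for Vldlr and 0.64 for Slc27a1. The macrophage score did so too, at 0.92 for Cd36, 0.95 for Vldlr, 0.91 for Angptl4 and 0.80 for Lpl, but at 0.29 for Slc27a1. The endothelial score ranged from 0.61 for Slc27a1 to 0.93 for Gpihbp1. The epididymis score ran the other way, at -0.86 for Cd36 and -0.74 for Lpl. So did the skin and gland epithelium score, from -0.92 for Gpihbp1 and -0.86 for Vldlr to -0.42 for Slc27a1. These correlations with scores include double-knockout replicate 1. In the 10 ingWAT arrays the median r was 0.24 (-0.48 to 0.81). There 5 of the 21 pairs exceeded 0.5, beside 9.64% of all gene pairs, led by Lpl with Vldlr (0.81) and Lpl with Angptl4 (0.72). These are descriptions over arrays that share tissue composition and marrow group, and the difference between depots in r was not tested.

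**Figure D4:**
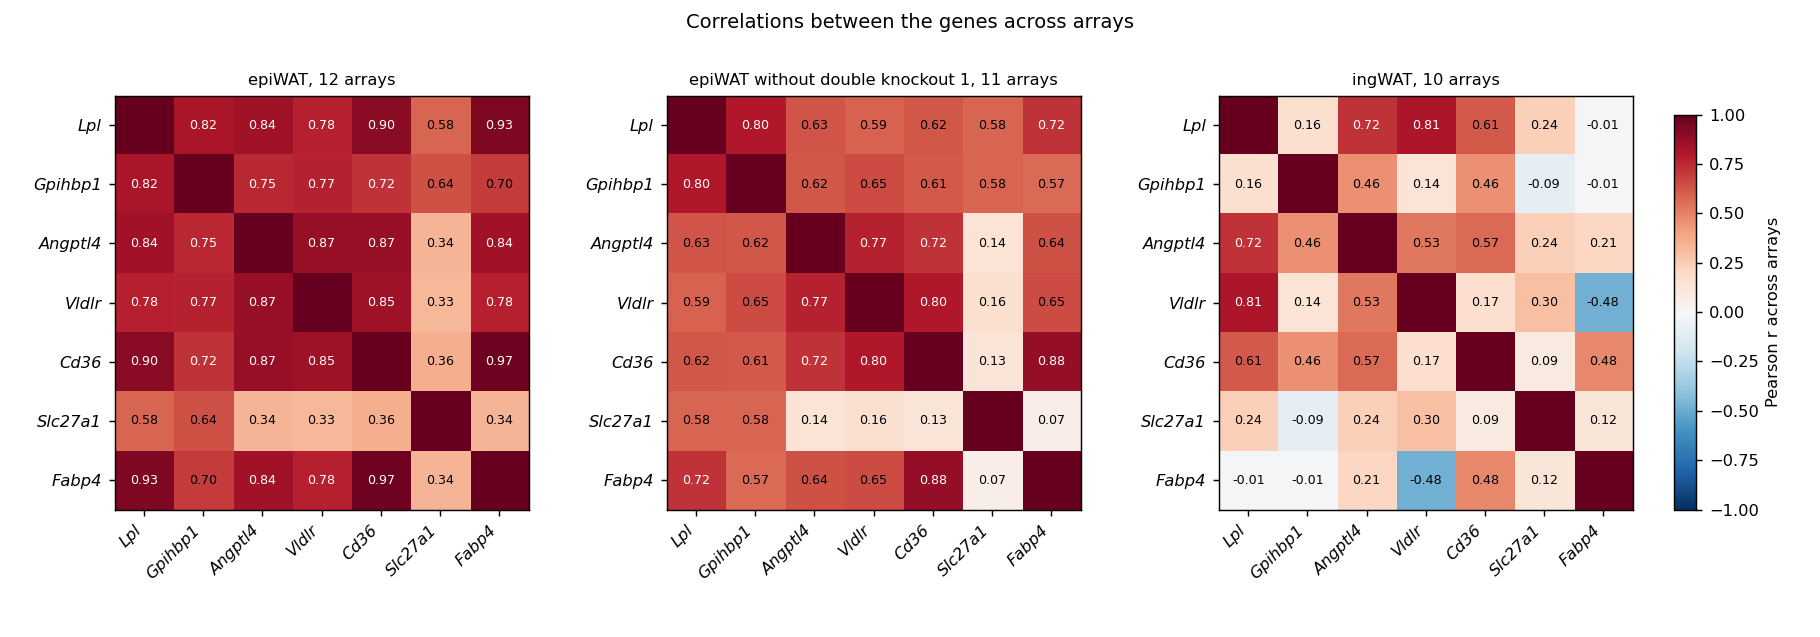
Pearson correlations across arrays are given for each pair of the 7 genes in epiWAT (12 arrays), in epiWAT without double-knockout replicate 1 (11 arrays) and in ingWAT (10 arrays), on a colour scale from -1 to 1. The median pair moves from 0.78 to 0.62 without that array and is 0.24 in ingWAT.

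By a fixed rule, the genes most like each member were those with the highest value of the smaller of its epiWAT (12 arrays) and ingWAT (10 arrays) correlations. For Lpl they were Orm1 (smaller r of 0.91), Oxct1 and Ywhab, and for Gpihbp1 Sh3bp5 (0.86), the endothelial factor Sox18 (0.84) and Pikfyve. Angptl4 was followed by the Fc receptor Fcgr2b (0.90), Sptbn1 and the myeloid receptor Cd300ld. Cd36 was followed by Arhgap29 (0.95), Ercc8 and Echdc1, and Vldlr by Fez2 (0.90), Tnfrsf23 and Tmem182. Slc27a1 was followed by the activin receptor Acvr1c (0.84), Gnrh1 and Gcdh. Fabp4, with its narrow range, was followed by Utp20, Nt5c and Cyp4f16, and with median centring 15 of these 21 genes were named again. The names were picked from 13872 genes, with epiWAT double-knockout replicate 1 included. Taking the highest of so many values over few arrays favours a high r, and no likeness was tested.

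Of the other genes of the pathway, 52 of 58 listed were measured. The list of lipoprotein lipase regulators and lipoprotein receptors had 17 tested genes, and in ingWAT 1 of them, Lrpap1, the chaperone of LDL receptor relatives including the VLDL receptor, fell with double-knockout compared with Gipr-/- marrow (-1.06, SE 0.26, limma adjusted p = 0.0461). The median of that list was -0.34, against -0.03 for all genes. Its mean was 12.14 ± 0.35 (SD, n = 3) in the Gipr-/- arrays and 11.07 ± 0.22 (n = 3) in the double-knockout arrays. The call held in 3 of the 10 fits that left out 1 ingWAT array (adjusted p = 0.0217 to 0.163). It was lost without a filter on low genes, without a trend, with quantile normalization and with all 22 arrays in one fit (adjusted p = 0.0589 to 0.102), and without the 2 double-knockout arrays high in B cell genes the difference was -0.83 (adjusted p = 0.34). Lrpap1 was also lower in ingWAT than in epiWAT with WT marrow (-1.80, SE 0.30, adjusted p = 0.00585), and this was called in 22 of 22 fits that left out 1 array. With double-knockout marrow the difference was -1.29 (SE 0.33, adjusted p = 0.0311), called in 17 of 22 such fits (adjusted p up to 0.117, without ingWAT double-knockout replicate 1), and lost with median centring (-1.20, adjusted p = 0.0804) and without the 2 ingWAT arrays high in B cell genes (-1.05, adjusted p = 0.308). Of 20 tested carriers, transporters and acyl-CoA synthetases, 0 were called between marrows in ingWAT, where 0.234%, 3.48% and 0% of all genes were called for Gipr-/- minus WT, double knockout minus Gipr-/- and double knockout minus WT. Their median for double knockout minus Gipr-/- was -0.47, against -0.03 for all genes. Slc27a4, a relative of Slc27a1, was lower in ingWAT than in epiWAT with double-knockout marrow (-1.21, SE 0.34, adjusted p = 0.0494), a call that 3 of 22 such fits kept (adjusted p up to 0.23, without ingWAT double-knockout replicate 1) and that was lost without a filter, with quantile normalization, median centring or array weights (0.0621 to 0.0739) and without the 2 ingWAT or the 2 epiWAT arrays that stood apart (0.222 and 0.123). Slc27a4 was low on the array, at 6.16 to 7.41 in the ingWAT double-knockout arrays, beside array medians of 6.11 to 6.54. Of 13 tested transcription factors and signals, Cebpa, a main factor of adipocyte differentiation, rose in ingWAT with double-knockout compared with Gipr-/- marrow (1.51, SE 0.33, limma adjusted p = 0.0317), from 12.69 ± 0.47 (SD, n = 3) to 14.20 ± 0.60 (n = 3). The Cebpa call was lost without Gipr-/- replicate 1 or 2 or double-knockout replicate 1 (adjusted p = 0.112 to 0.144), without a variance trend (0.0506), with all 22 arrays in one fit (0.133) and without the 2 double-knockout arrays high in B cell genes (2.08, adjusted p = 0.129).

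No gene of these lists was called in the other comparisons, and those with the smallest p stood as follows. For Gipr-/- minus WT in ingWAT, Cav2, a caveolin, was at 1.33 (limma adjusted p = 0.0634), Cebpa at -1.31 (0.0819) and the coactivator Ppargc1a at -2.22 (0.0856). In epiWAT the fatty acid receptor Ffar4 was at -1.61 (0.374), Ppargc1a at -1.66 (0.585) and Cebpa at -1.47 (0.632). For double knockout minus Gipr-/- in epiWAT, the syndecan Sdc4 was at -1.50 (0.27), Angptl8, a secreted protein of fat and liver, at 3.01 (0.328) and Ppargc1a at 1.63 (0.34). The epiWAT Gipr-/- arrays had Angptl8 at 4.40 to 5.83, below all array medians (6.11 to 6.54). The double-knockout arrays had it at 6.28, 8.10, 7.30 and 11.90, and the difference ranged from 1.84 to 3.71 with 1 array left out. For double knockout minus WT in epiWAT, Sel1l, a protein of the endoplasmic reticulum needed for lipase maturation, was at -0.60 (0.999), Slc27a4 at 0.51 (0.999) and Lrpap1 at -0.62 (0.999). For double knockout minus WT in ingWAT, perlecan (Hspg2) was at -1.23 (0.0635), Scarb1 at -0.69 (0.254) and Zdhhc4 at -0.97 (0.287). Between depots with Gipr-/- marrow, Meox2, a factor of capillary endothelium, was at 2.05 (0.0761), Cav2 at 1.46 (0.158) and Flot1 at 1.07 (0.2). With array weights Ffar4 in epiWAT, Cav2, Cebpa, Ppargc1a and Hspg2 in ingWAT and Meox2 and Cav2 between depots passed (adjusted p = 0.00656 to 0.0405). In the depot difference of double knockout minus Gipr-/-, Lmf1, a factor for folding of the lipase, was at -1.39 (0.121, and -1.56 with array weights, 0.0179), Zdhhc4 at -1.66 (0.186) and Scarb1 at -1.36 (0.239). In that of Gipr-/- minus WT, Fabp3 was at -4.46 (0.452), Cav2 at 1.75 (0.53) and Lmf1 at 1.10 (0.531). In that of double knockout minus WT, Slc27a4 was at -1.19 (0.432), Zdhhc4 at -1.30 (0.497) and Acbd3 at 0.57 (0.645).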

How the data were processed

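The authors deposited 1 table of log values for 21793 features, taken here as log2; base and normalization are not given in the sources used here, and Partek 6.6 is named in the submitters' processing notes. The starting amount was 100 ng of RNA, per the labels' protocols. Platform annotation named 19337 genes, of 4 with 2 features the one with the higher mean being kept. Array medians lay between 6.11 and 6.54, and array data carry no read depth. Groups come from the labels, which do not say that arrays are separate mice, so the p-values reflect the variation among arrays, which may be technical.

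Marrow contrasts were fitted within each depot with limma 3.58.1 (R 4.3.3; lmFit, eBayes with a trend), and contrasts between depots in 1 fit of all 22 arrays. The lowest 25% of genes by mean were left out. Two-sided p-values were adjusted by Benjamini-Hochberg over the 14502 others (threshold 0.05). The fit was tested on simulated data. The members and the lists were chosen with earlier results of these data known. Named are the members, the targeted genes, pathway genes that passed (up to 6) or else the 3 with the smallest p, the 3 most similar genes per member and some markers.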

Additional observations from a re-analysis of the deposited data

Results flagged for a closer look

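Cd36 in epiWAT with WT marrow had a lowest array, replicate 2, at 17.60, with the other 3 arrays between 18.21 and 18.31. Its gap to the next array was 0.861 of the group's range, above Dixon's 95% critical value for 4 samples. Chance alone marks about 1 in 20 such groups. The rule was applied to each of the 7 members in every group with 4 arrays, and this was its only flag. The same array had the highest epididymis (2.07), testis germ cell (2.90) and skin and gland epithelium (2.03) scores of the WT epiWAT arrays. It also had the lowest adipocyte (-0.13), macrophage (-0.74) and endothelial (-0.77) scores among them. Its Gpx5 value was 4.30, against 9.61 in WT replicate 1. The part of other tissue in the Cd36 value was not tested.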

How the results depend on the processing

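Of 2037 member values under the alternatives, 1917 kept their direction and their side of the threshold, 41 lost a call, 4 gained one and 75 turned sign. The values that turned sign were called under neither setting and were at most 0.51 in size (lowest limma adjusted p = 0.565). Of 765 such values of the named pathway genes 697 were the same in this sense, 53 lost a call, 15 gained one and 0 turned sign. The number of members called for double knockout minus Gipr-/- in ingWAT was 2, and it was 1 without a variance trend, 1 with quantile normalization, 0 with all 22 arrays in one fit, 0 without the 2 arrays high in B cell genes (an alternative chosen after seeing the data, as were leaving out 2 epiWAT arrays or the 3 ingWAT arrays with title codes out of sequence), 0 without those 3 arrays and 0 to 3 with 1 array left out. For double knockout minus WT in ingWAT it was 0, with 1 under array weights and 0 to 1 with 1 array left out. For ingWAT minus epiWAT with Gipr-/- marrow it was 1, with 0 without a filter, without a trend, with quantile normalization, without the 2 or the 3 ingWAT or without the 2 epiWAT arrays, and 0 to 1 with 1 array left out. The genes called in all ran from 0 to 1797 over the alternatives for the ingWAT comparison of double knockout with Gipr-/- (505), from 0 to 401 for Gipr-/- minus WT there (34), from 0 to 620 for double knockout minus WT (0) and from 2 to 623 for the depots with Gipr-/- marrow (89). In epiWAT they ran from 0 to 26 for Gipr-/- minus WT (0) and from 0 to 1 for double knockout minus Gipr-/- (0). With quantile normalization the sign turned to Fabp4 0.02 for epiWAT Gipr-/- minus WT, Fabp4 -0.04 for ingWAT Gipr-/- minus WT, Cd36 0.09 for ingWAT double knockout minus Gipr-/-, Cd36 0.09 for ingWAT minus epiWAT, WT, Lpl 0.08 for ingWAT minus epiWAT, double knockout, Cd36 -0.03 and Fabp4 -0.06 for the depot difference of Gipr-/- minus WT. With median centring the sign turned to Fabp4 -0.06 for ingWAT double knockout minus Gipr-/-, Fabp4 0.14 for ingWAT minus epiWAT, Gipr-/-. With array weights the sign turned to Fabp4 0.01 for epiWAT Gipr-/- minus WT, Angptl4 -0.23 for ingWAT minus epiWAT, double knockout. Without the 2 ingWAT arrays high in B cell genes the sign turned to Fabp4 -0.06 for ingWAT double knockout minus Gipr-/-, Lpl 0.05 and Gpihbp1 -0.10 for ingWAT double knockout minus WT, Lpl 0.19 and Vldlr 0.19 for ingWAT minus epiWAT, double knockout, Angptl4 0.01 for the depot difference of double knockout minus WT. Without the 3 ingWAT arrays with title codes out of sequence the sign turned to Vldlr -0.08 for ingWAT Gipr-/- minus WT, Cd36 0.02 for ingWAT double knockout minus Gipr-/-, Angptl4 -0.02 for ingWAT minus epiWAT, WT, Cd36 -0.21 for ingWAT minus epiWAT, Gipr-/-, Cd36 -0.02 and Vldlr -0.30 for the depot difference of Gipr-/- minus WT, Angptl4 0.10 for the depot difference of double knockout minus WT. Without the 2 epiWAT arrays high in epididymis or germ cell genes the sign turned to Fabp4 0.03 for epiWAT Gipr-/- minus WT, Lpl 0.01 for epiWAT double knockout minus Gipr-/-, Gpihbp1 0.28 and Angptl4 0.01 and Vldlr 0.01 for epiWAT double knockout minus WT, Cd36 -0.03 for ingWAT minus epiWAT, Gipr-/-, Angptl4 -0.51 for ingWAT minus epiWAT, double knockout, Vldlr -0.08 for the depot difference of Gipr-/- minus WT, Lpl -0.04 and Gpihbp1 -0.13 for the depot difference of double knockout minus WT. Leaving out 1 array at a time turned the sign of uncalled values, which ranged as follows: Fabp4 -0.02 to 0.03, Angptl4 -0.14 to 0.70, Cd36 -0.03 to 0.31 for epiWAT Gipr-/- minus WT, Gpihbp1 -0.20 to 0.71, Lpl -0.39 to 0.08 for epiWAT double knockout minus Gipr-/-, Gpihbp1 -0.63 to 0.28, Angptl4 -1 to 0.01, Vldlr -0.67 to 0.01 for epiWAT double knockout minus WT, Slc27a1 -0.43 to 0.05 for ingWAT Gipr-/- minus WT, Fabp4 -0.05 to 0.04 for ingWAT double knockout minus Gipr-/-, Gpihbp1 -0.11 to 0.34, Cd36 -0.01 to 0.16 for ingWAT double knockout minus WT, Angptl4 -0.28 to 0.56 for ingWAT minus epiWAT, WT, Cd36 -0.03 to 0.31, Fabp4 -0.04 to 0.01 for ingWAT minus epiWAT, Gipr-/-, Angptl4 -0.51 to 0.46, Lpl -0.44 to 0.04 for ingWAT minus epiWAT, double knockout, Vldlr -0.08 to 0.45 for the depot difference of Gipr-/- minus WT, Angptl4 -0.64 to 0.36, Slc27a1 -0.43 to 0.04, Lpl -0.04 to 0.44, Gpihbp1 -0.13 to 0.78 for the depot difference of double knockout minus WT. No paired analysis was run, because no number in the titles is shared between arrays and the labels do not say that any arrays come from the same mouse. The title codes of 7 ingWAT arrays run parallel to those of epiWAT at a constant step, which the labels do not explain, and no pairing was taken from it. Contrasts between depots therefore treat all arrays as independent, which does not hold if some share a mouse. The number of arrays limits the precision, and values near the top of the range, as for Fabp4, vary little.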

Other observations

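Fabp3, the fatty acid carrier of muscle and heart, was not among the members but ranged widely. Its log2 value in ingWAT with WT marrow was 8.69, 11.59, 11.53 and 6.42, and the skeletal muscle scores of those arrays were 2.42, 4.49, 5.77 and -4.98. With Gipr-/- marrow it averaged 6.99 ± 0.97 (SD, n = 3) in ingWAT and 8.48 ± 1.88 (n = 4) in epiWAT. The depot difference of Gipr-/- minus WT marrow was -4.46 (SE 1.44, limma adjusted p = 0.452), which was not called. The array lowest in Fabp3 among the WT ingWAT samples was the one with the lowest muscle score, and the part of muscle in its level was not tested.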
